A study of Mus musculus with 2 samples.

Results

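The genes described here build and supply cilia, the hair-like extensions of the cell surface that are either immotile sensory antennae (primary cilia) or beat to move fluid. They were chosen by name on the array: every gene named Ift or Bbs followed by a number, every axonemal dynein heavy chain (Dnah or its older spelling Dnahc followed by a number), and the transcription factors Foxj1, Rfx2 and Rfx3. This gave 35 of the 31736 gene names on the array, of which 10 are IFT genes, 8 are Bbs genes, 14 are axonemal dynein heavy chains and 3 are transcription factors. They were read by 56 probes of 60 bases, each printed as 1 spot per array. The rule used names only, and it was set with earlier results of these data known.

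The samples were epiblast stem cells of the mouse (EpiSC), which are pluripotent and resemble the epiblast of the embryo after implantation. Clone 1 and clone 2 were both wildtype, female and of C57BL/6 background, were collected untreated apart from trypsin at passage 9, and were hybridised to 1 array each. The arrays served to set lines made in 1 laboratory beside EpiSC from earlier work. Each clone is a single line, so a difference between arrays cannot be told apart from a difference between cultures, and neither a p-value nor a standard error can be given for the clones.

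Cilia are assembled at their tip, and since no protein is made inside them, building blocks are carried in by intraflagellar transport (IFT). Trains of IFT-B particles travel outward with kinesin-2, and IFT-A particles serve the return with dynein-2. The BBSome, a coat-like complex named after Bardet-Biedl syndrome, rides on these trains and moves membrane receptors in and out of the cilium. Both systems serve primary cilia and motile cilia. Axonemal dynein heavy chains are the motors that bend motile cilia and sperm tails, and primary cilia lack them. Foxj1 switches on genes of motile cilia, and the RFX factors bind a promoter element, the X-box, in cilia genes. In the mouse embryo, cells of the epiblast carry primary cilia, and motile cilia first appear at the node.

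The processed signal of a spot was divided by the signal at the 75th percentile of all probes of its array, which was 819 for clone 1 and 726 for clone 2, and is given below in log2 as the scaled signal. A scaled signal of 0 is that of the 75th percentile, and differences are clone 2 minus clone 1. A probe counted as detected where the scanner software called its spot well above background. Of 39272 probes, the array of clone 1 detected 22530 (57.4%) and that of clone 2 detected 22567 (57.5%), and the lowest detected scaled signals were -4.54 and -4.55. Signals of different probes are not compared with each other, since probes bind with different strength.

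All 9 EpiSC markers on the list were detected in both clones, among them Pou5f1 (2.87 in clone 1 and 2.51 in clone 2), Nanog (4.43 and 4.28), Sox2 and Fgf5. All 11 fibroblast markers that could be read were detected too, with scaled signals from -0.71 to 5.91 in clone 1 and from -0.44 to 6.10 in clone 2. None of these 11 was at background, and their levels summed to 176 times the 75th percentile signal in clone 1 and 195 times in clone 2. Fn1, for example, read 5.91 in clone 1 and 6.10 in clone 2. Such a sum adds probes that bind with different strength, so it does not measure a share of fibroblasts. The labels do not say whether feeder cells were used. In RNA from a whole culture, fewer cells of a type and less RNA per cell cannot be told apart. The part of other cells in the signals below was not tested.

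The probes on which the results turn are printed here, so that each signal can be traced to the transcript stretch it read. Positions are those of the file headers' mm9 build. Where a probe may lie in the end of a transcript, the first 30 bases are given, and otherwise all 60. Foxj1 was the member with the largest measured difference, Dnahc9 and Rfx2 were detected in clone 1 only, and Ift140 and Ift74 had the largest differences of their group. Dnahc8 and Dnahc7a show how probes of 1 dynein gene disagreed, and the Dnahc7b probe lies within the span of the Dnahc7a probes.
Foxj1, A_51_P456870, chr11:116192214-116192273, minus strand: ggagagactaatatagtgaatgtagttata
Dnahc9, A_55_P2181397, chr11:65789937-65789996, minus strand: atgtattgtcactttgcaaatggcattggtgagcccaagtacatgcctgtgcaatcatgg
Rfx2, A_51_P327934, chr17:56915749-56915808, minus strand: cccatctgcttgactatagactttctgtcc
Ift140, A_51_P330144, chr17:25172684-25172743, plus strand: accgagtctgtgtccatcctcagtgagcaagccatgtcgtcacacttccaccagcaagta
Ift74, A_55_P2061341, chr4:94359701-94359760, plus strand: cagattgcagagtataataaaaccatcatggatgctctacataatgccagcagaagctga
Dnahc8, A_55_P2025675, chr17:31012150-31012209, plus strand: tatgtctcctgcctgataggtgcttcatta
Dnahc7a, A_55_P2184028, chr1:53452754-53452813, minus strand: acattggagattatcctctaacacctggtt
Dnahc7a, A_55_P1967514, chr1:53468351-53468410, minus strand: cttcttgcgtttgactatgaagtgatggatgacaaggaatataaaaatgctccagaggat
Dnahc7b, A_52_P425510, chr1:53634105-53634164, minus strand: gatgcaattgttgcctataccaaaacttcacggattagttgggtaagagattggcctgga
No stretch of 20 bases of any member probe, on either strand, was found in another probe of the array. This compares probes with probes and not with transcripts, so it does not show whether a probe binds transcripts of other genes.

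Transport genes were detected in both clones, and most motors of motile cilia were not. Of the 35 genes, 23 (65.7%) were detected in both clones, and 54.5% of all gene names on the array were. The groups divided sharply. All 10 IFT genes and all 8 Bbs genes were detected in both clones, while 3 of 14 dynein heavy chain genes (21.4%) were, namely Dnahc7a, Dnahc7b and Dnahc8. Dnahc7b and Dnahc8 were detected only with their probe nearest to the 3′ end. That probe was detected in neither clone for Dnahc3, Dnahc10, Dnahc12 and Dnahc17. The part of probe position in these shares was not tested. Of the transcription factors, Foxj1 and Rfx3 were detected in both clones. Dnahc9 and Rfx2 were detected in clone 1 only, Dnahc1 and Dnahc17 in clone 2 only, and Dnahc2, Dnahc3, Dnahc5, Dnahc6, Dnahc10, Dnahc11, Dnahc12 and Dnahc14 in neither. By probe, 30 of 56 were detected in both clones, against 54.7% of all probes, and 21 of the 28 dynein probes were detected in neither. Another limit, 2.6 SD above the mean of the negative control spots, lay at a processed signal of 88.2 in clone 1 and 25.3 in clone 2. It left 22 genes, with Dnahc7a and Dnahc8 as the dyneins, and 47.5% of all gene names. The looser flag for a spot that is positive and significant over background gave 29 genes and 8 dyneins, but 76.1% of all gene names then also passed.

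**Figure D1:**
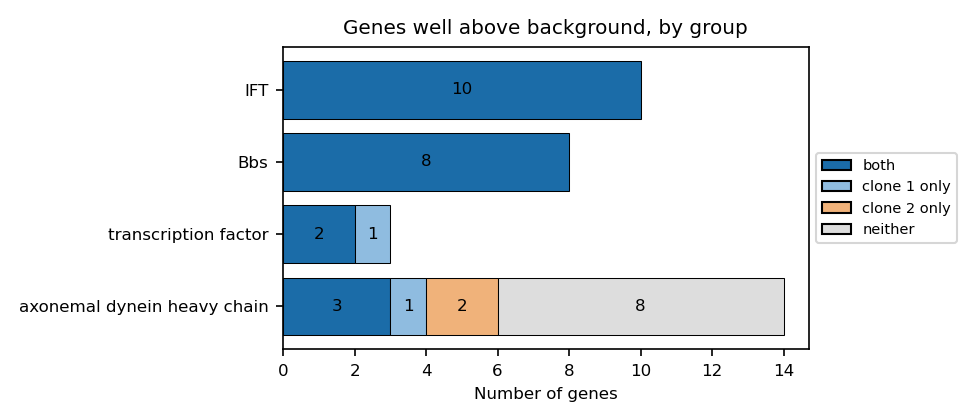
Number of genes (horizontal axis) whose probes were well above background in both clones, in clone 1 only, in clone 2 only or in neither, for each group of members. All 10 IFT and all 8 Bbs genes fall in the class detected in both clones, and 8 of 14 dynein heavy chain genes in the class detected in neither.

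Among the IFT-B genes, Ift88, without which cilia are not built, gave scaled signals of 0.87 in clone 1 and 0.75 in clone 2. Ift52, a core subunit that binds it, read 0.95 and 0.88. Ift20, which also works at the Golgi in sorting cargo to the cilium, read 1.39 and 1.40. None of these 3 differed by more than 0.12 log2 between clones. Ift57, which joins the core to the outer part of the train, read 1.73 and 1.48, a difference of -0.24. Ift172, a large outer subunit, read -0.35 and -0.47.

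Ift74 and Ift81 form a pair that binds tubulin, the main cargo. Ift74 had a processed signal of 844 in clone 1 and 445 in clone 2, which is 0.04 and -0.71 when scaled, so it was 1.68-fold higher in clone 1. Ift81 read -0.79 and -1.01, a difference of -0.22. The partners thus had the same sign and unequal sizes. Of the 6 spots nearest to that of Ift74, all with signal, 2 were also at least 2-fold higher in clone 1, and the part of position on the slide was not tested. Ift80, an outer subunit whose loss causes skeletal disease, read 0.81 and 0.31 and was 1.41-fold higher in clone 1.

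The IFT-A genes were Ift122 and Ift140. Ift140 had a processed signal of 119 in clone 1 and 60.1 in clone 2, or -2.78 and -3.60 when scaled, a 1.76-fold higher value in clone 1. With normexp, another way to correct for background, its difference was 0.12 in place of -0.82, so the direction was not kept. Of 3 neighbouring spots with signal, 1 was at least 2-fold higher in clone 1. Ift122 was read by 2 probes. One of them read 1.098 and 1.17, the other -0.24 and -0.34, so their differences were 0.07 and -0.10. Both signs turned with normexp (-0.05 and 0.08).

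Among the BBSome subunits, Bbs4 was level between clones, with 0.32 in clone 1 and 0.31 in clone 2. Bbs9, a scaffold of the complex, read 0.21 and 0.43, a difference of 0.22. Bbs2, which pairs with Bbs7 and Bbs9, read -2.22 and -2.73 and was 1.42-fold higher in clone 1. With normexp the Bbs2 difference was -0.05. Bbs9 was therefore on the clone 2 side and Bbs2 on the clone 1 side, both below 2-fold.

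Several Bbs genes had a pair of probes. For Bbs7 the probes read -0.12 in clone 1 and -0.33 in clone 2, and -1.46 and -1.61. For Bbs5, whose product binds membrane lipids, they read -1.07 and -1.23, and -3.82 and -3.96. In both genes the probes had the same sign, and the differences lay between -0.21 and -0.14. With normexp they were -0.22 and 0.14 for Bbs7, and -0.0071 and 0.50 for Bbs5, so the shared sign was lost. The probes of Bbs1, the subunit that binds the GTPase Arl6, disagreed. One read -1.39 in clone 1 and -1.66 in clone 2, and the other, a dim one, read -3.51 and -2.96, so the differences were -0.27 and 0.54.

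Bbs10 and Bbs12 encode chaperonin-like proteins that help to fold and assemble the BBSome. Bbs12 had a processed signal of 648 in clone 1 and 397 in clone 2, or -0.34 and -0.87 when scaled, and was 1.45-fold higher in clone 1. The probes of Bbs10 read -1.89 and -2.04, and -2.88 and -3.01. Their differences were -0.14 and -0.13, and 0.19 and 0.34 with normexp, on the other side.

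**Figure D2:**
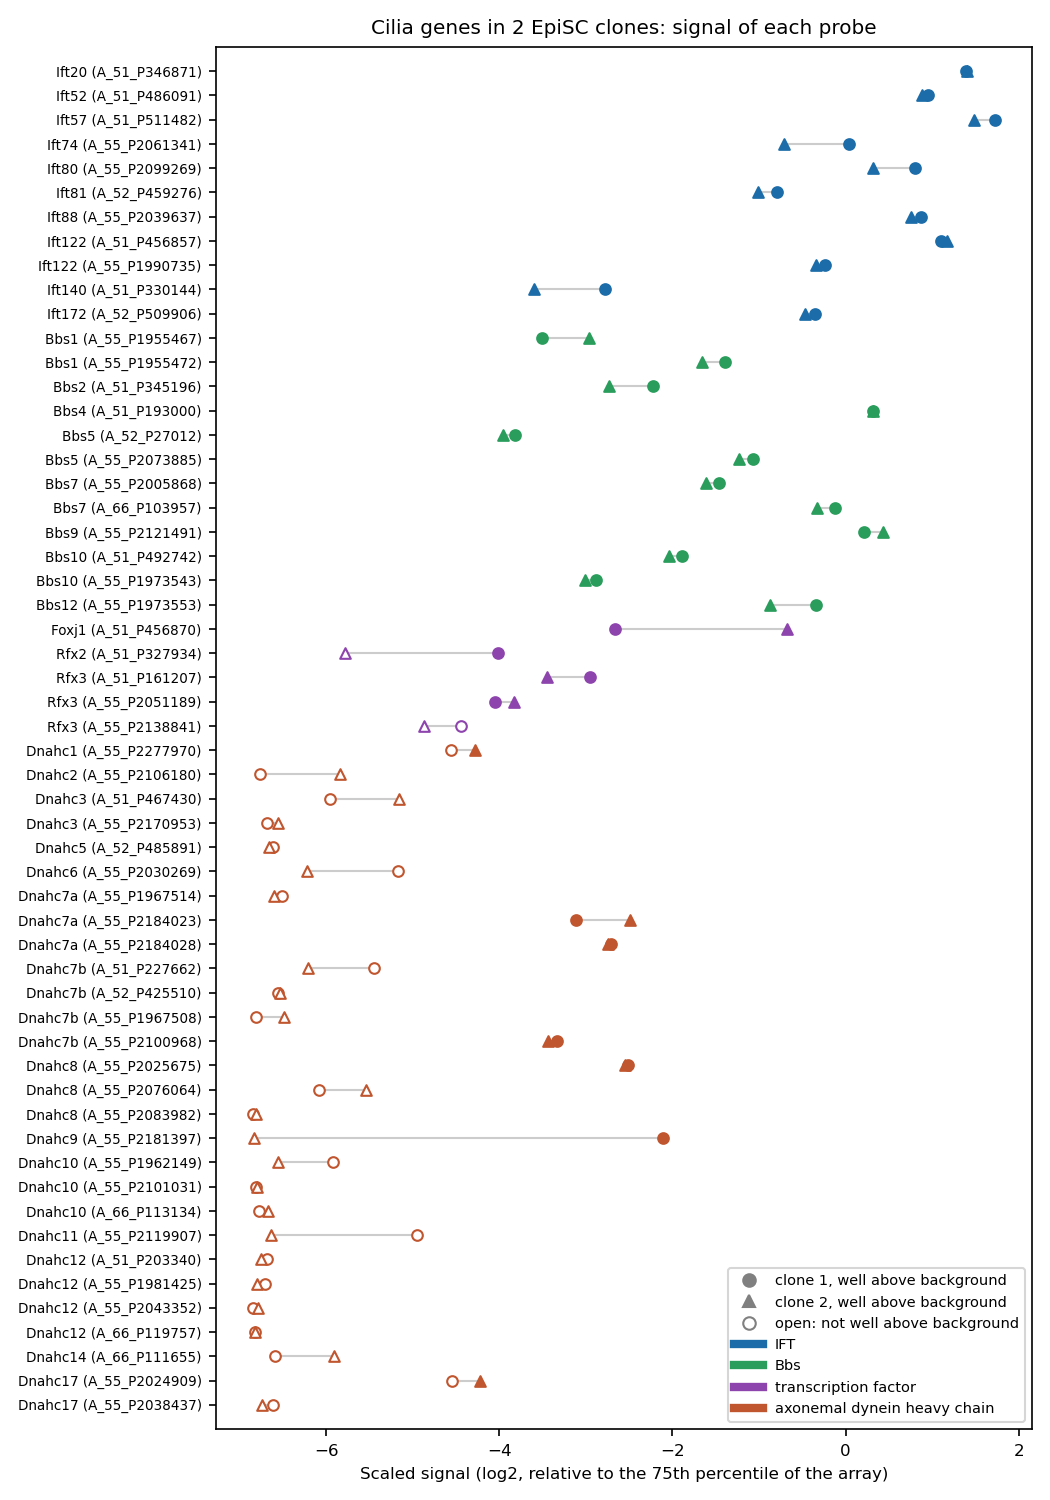
Scaled signal (log2, with the array's 75th percentile at 0) of each of the 56 probes, with clone 1 as circles and clone 2 as triangles, filled where the probe was well above background and open where it was not. IFT and Bbs probes are all filled, most dynein probes are open at both ends, and Foxj1 and Dnahc9 have the long lines.

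The outer dynein arms drive the beat. Of their heavy chains, Dnahc5 read -6.61 in clone 1 and -6.67 in clone 2, with processed signals of 8.39 and 7.16. The median negative control spot had 7.96 and 7.13, so Dnahc5, the chain along most of the outer arms of airway cilia, was not well above background. Dnahc11, which works in the node and near the base of cilia, gave 26.4 and 7.29, detected in neither clone. Dnahc17, a chain of sperm tails, was detected in clone 2 with 1 of 2 probes, at -4.22, and read -4.54 in clone 1. Against its own value in clone 1 this gives 1.25-fold higher in clone 2 (0.32 log2), from processed signals of 35.1 and 39.0. With the 75th percentile taken over detected probes the difference was 0.25, so 1.25-fold is a lower bound only under the scaling reported. Of the 6 nearest spots, 1 was at least 2-fold higher in clone 2 as well, and the part of position on the slide was not tested.

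Dnahc9, the outer arm chain of the outer part of airway cilia, was the exception. Its probe had a processed signal of 190 in clone 1 and 6.38 in clone 2, or -2.11 and -6.83 when scaled, and was at least 5.44-fold higher in clone 1, measured against the lowest detected level of clone 2. With normexp the difference was -0.90 in place of -4.72, so 5.44-fold (2.44 log2) is a lower bound only under the scaling reported. Of its 5 neighbouring spots with signal, 2 were at least 2-fold higher in clone 1 as well, and a very bright spot lay next to it (106606 in clone 1 and 73365 in clone 2). The pixels of the Dnahc9 spot in clone 1 had an SD of 93.5 on a mean of 322. Those of its neighbour Des had 42.6 on 333, and those of AA414768, a neighbour higher in clone 1, had 76.3 on 336. Dnahc9 has 1 probe on the array, so no other probe bears on this value. The parts of position on the slide and of an uneven spot were not tested.

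Dnahc8, an outer arm chain of sperm tails, was detected with 1 of 3 probes, which read -2.52 in clone 1 and -2.55 in clone 2. That probe is the one nearest to the 3′ end of the gene. The others lie 56037 and 211769 bases upstream of it on mm9 and were detected in neither clone, with processed signals of 12.1 and 15.6, and of 7.14 and 6.45. A probe near the 3′ end was thus the one read, and only there were the clones measured, at nearly equal signal.

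The inner arms shape the wave of the beat. Dnahc7a and Dnahc7b are near copies of each other, so their transcripts may bind the same probe in part. The probe of Dnahc7a nearest to its 3′ end read -2.71 in clone 1 and -2.74 in clone 2. A probe 15597 bases upstream was detected in neither clone, at 8.99 and 7.50 in processed signal. A probe still further upstream, 302137 bases from the 3′-most, was detected again at -3.11 and -2.48, which is 1.54-fold higher in clone 2. Between the detected probes of Dnahc7a thus lay an undetected one. Of the 6 spots nearest to that of the furthest upstream probe, 1 was at least 2-fold higher in clone 2 as well. The brightest of them had 170840 in clone 1 and 160882 in clone 2, and the part of position on the slide was not tested. The 3′-most probe had a difference of -0.03, within the 0.17 log2 that spot noise gives for dim probes, and was 0.30 with normexp.

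Of the probes named Dnahc7b, the one nearest to the 3′ end read -3.34 in clone 1 and -3.44 in clone 2. The others were detected in neither clone, with processed signals of 18.7 and 9.79, of 8.70 and 7.84, and of 7.31 and 8.11. One of these, printed above, maps to the minus strand at chr1:53634105-53634164, between the probes of Dnahc7a, while the other Dnahc7b probes map to the plus strand between 46181308 and 46430345. Its name and its place on mm9 thus disagree, and the level of Dnahc7b rests on 1 of its 4 probes.

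The other inner arm chains were at or near background. Dnahc1 was detected in clone 2 at -4.28 and read -4.55 in clone 1. Under the scaling reported this bounds it at 1.198-fold higher or more in clone 2. Its difference was 0.27 log2 there and 0.20 with the 75th percentile taken over detected probes, so the bound is not firm. Of its 6 nearest spots, 1 was at least 2-fold higher in clone 2 as well. Dnahc2 and Dnahc10, the pair of chains of the double-headed inner arm, gave processed signals of 7.52 and 12.7 for Dnahc2, and for the 3 probes of Dnahc10 up to 13.5 in clone 1 and 7.70 in clone 2. All 4 probes of Dnahc12 lay between 7.14 and 7.93 in clone 1 and between 6.41 and 6.71 in clone 2. For Dnahc3 the brighter probe gave 13.2 and 20.3, for Dnahc6 the probe gave 22.6 and 9.73, and for Dnahc14 it gave 8.49 and 12.0. Apart from Dnahc1 none of these genes was detected in either clone, so no fold is given for them.

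Foxj1 was the only member measured in both clones that differed by 2-fold or more. It had a processed signal of 129 in clone 1 and 453 in clone 2, or -2.66 and -0.68 when scaled, and was 3.95-fold higher in clone 2 (1.98 log2). The difference was 1.498 with normexp, 1.91 with the 75th percentile taken over detected probes, 2.03 with quantile normalization and 2.03 from the authors' deposited table. None of its 4 neighbouring spots with signal was 2-fold higher in clone 2. Of all probes detected in both clones, 1.59% were 2-fold or more higher in clone 2, and 1 of the 30 member probes was. For clone 1 the share was 1.19%, and 0 member probes reached it. Foxj1 has 1 probe of 1 spot, so its value has no check within the array.

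The RFX factors were dim. Rfx2, which acts in sperm and in multiciliated cells, gave a processed signal of 50.4 in clone 1 and 13.2 in clone 2, or -4.02 and -5.78 when scaled. Under the scaling reported this bounds Rfx2 at 1.44-fold higher or more in clone 1. With normexp the difference was 0.23, on the other side, so the bound is not firm. Of the 4 neighbouring spots of Rfx2 with signal, 1 was at least 2-fold higher in clone 1, and Rfx2 lay beside the same bright spot as Dnahc9. Rfx3, needed for cilia of the node, was read by 3 probes. They gave -2.95 in clone 1 and -3.45 in clone 2, then -4.05 and -3.84, while the probe nearest to the 3′ end was detected in neither clone. The detected probes of Rfx3 had differences of -0.50 and 0.22, and with normexp the former was 0.26, so no direction can be given.

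Taken over the 30 member probes measured in both clones, 23 (76.7%) were higher in clone 1, against 46.6% of all probes, and the median difference was -0.13 against 0.02 for all probes. The differences ran from -0.82 to 1.98, with an SD of 0.50. By group the median was -0.12 for 11 IFT probes (9 higher in clone 1), -0.14 for 12 Bbs probes (10 higher in clone 1) and -0.03 for 4 dynein probes. The direction depended on the background correction. With normexp 13 of 30 (43.3%) were higher in clone 1, against 35.9% of all probes, and the medians were 0.05 for members, -0.05 for IFT (7 of 11 higher in clone 1), 0.04 for Bbs and 0.44 for dyneins. Normexp moved the median of all probes to 0.13, so members stayed below the array median there too. Several undetected probes moved further. Dnahc5 went from -0.06 to 1.02, and the 4 Dnahc12 probes from between -0.09 and 0.05 to between 0.86 and 1.04. Not all did, since Dnahc2 had 0.93 as reported and 0.92 with normexp. The part of this shift in the changed signs of dim probes was not tested. With the percentile over detected probes, 25 of 30 member probes (83.3%) and 57.4% of all probes were higher in clone 1. For dyneins 3 of 4 were higher in clone 1 here, and 1 of 4 with quantile normalization and in the authors' deposited table.

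The size of these shifts can be set against the noise between spots. Probes printed many times on an array had a median SD of 0.07 log2 in clone 1 and 0.08 in clone 2, which gives 0.11 for a difference of single spots, and 0.17 for dim probes. Of the 30 member probes, 13 differed by more than 2 times that noise, and 39.6% of all probes detected in both clones did, so the member count lay near the background. This covers the printing and scanning of spots, not the spread between cultures. Dim probes were also more often apart. Below a mean scaled signal of -2, 4.20% of 6449 probes were at least 2-fold apart, and at or above it 2.17% of 15048. Of the members, 11 lay below that signal and 19 at or above it, and Foxj1 was among the latter.

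**Figure D3:**
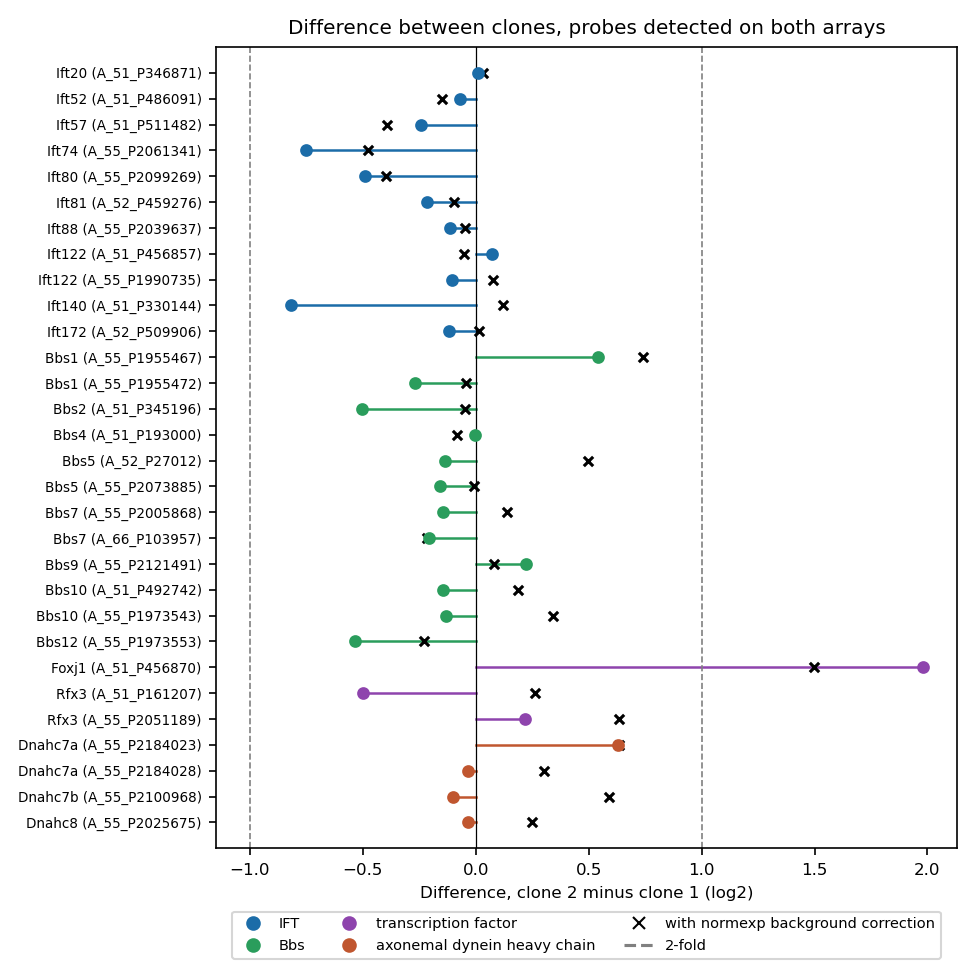
Difference between clones (clone 2 minus clone 1, log2) of the 30 member probes detected in both, with the reported value as a coloured dot and the value after normexp background correction as a cross; dashed lines mark 2-fold. Foxj1 alone lies beyond 2-fold under both corrections, and many crosses lie to the right of their dot, as that of Ift140 does.

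The other genes of cilia, from lists chosen by function, divided less sharply. Of subunits of IFT-B that carry other names, 7 of 9 were detected in both clones, and Traf3ip1 and Ttc30a2 in neither. Of IFT-A subunits with other names, 2 of 3 were, with Wdr35 at 1.18 in clone 1 and 1.86 in clone 2 and Wdr19 in neither. All 11 subunits of ciliary kinesin-2, Kif17 and dynein-2 on the list were detected in both, among them the dynein-2 heavy chain Dync2h1 at 0.65 and 0.16. The same held for all 11 further BBSome and Bardet-Biedl genes, such as the subunit Ttc8 (-1.48 and -2.13) and Arl6 (0.85 and 0.62), and for all 14 genes of the transition zone, the gate at the base of the cilium. Of membrane and signalling genes of primary cilia, 13 of 14 were detected in both, including Smo and Arl13b, and Gpr161 was detected in neither.

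Of these, Tmem216 of the transition zone alone held a probe at least 2-fold apart. That probe read 46.5 in clone 1 and 241 in clone 2 in processed signal, a difference of 2.55 log2. The brighter probe of Tmem216 read 1599 and 1244, a difference of -0.19. The probes disagreed in sign, and 2 of 6 spots beside the former were at least 2-fold higher in clone 2 as well.

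Parts used by motile cilia were detected less fully than those of transport and the primary cilium, but mostly at shares near the 54.5% of all gene names. The share was 50% for the smaller dynein chains, 45.5% for assembly and docking factors and 55.6% for the regulators. It was lower, at 35.7%, for radial spoke, central pair and tektin genes. Of a list of intermediate and light dynein chains, which also held Nme5, a gene of the nucleoside diphosphate kinase family, and the light chain Dynlrb2 of cytoplasmic dynein, 4 of 8 were detected in both clones. These were Dnaic1, Wdr63, Wdr78 and Nme5, and Dnaic2, Dnali1, Dynlrb2 and Tctex1d1 were detected in neither. Dnaic1, an intermediate chain of the outer arm, read -0.69 in clone 1 and 0.05 in clone 2. Of the 2 probes of Nme5, 1 was at least 2-fold higher in clone 2, with processed signals of 90.9 and 182. Its difference was 1.17 log2, and 1 of 2 spots with signal beside it was at least 2-fold higher too. The other Nme5 probe was detected in neither clone, at 16.3 in clone 1 and 23.0 in clone 2. Of factors that assemble or dock the arms 5 of 11 were detected in both, and of radial spoke, central pair and tektin genes 5 of 14, with Spef2 in clone 2 only. Of these lists the heavy chains had the lowest share detected in both clones.

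Of the regulators of multiciliated cells, 5 of 9 were detected in both clones. Mcidas (Gm6320 on the array), which starts the programme upstream of Foxj1, read 0.91 in clone 1 and 1.18 in clone 2, and Ccno, which acts in making many basal bodies, read -2.25 and -1.78. Trp73 was detected with all 3 of its probes, whose differences ran from -0.22 to 0.74 and so disagreed in sign. Gmnc, Ccdc67 and Cdc20b were detected in neither clone, and Ccdc78 in clone 2 only. Of the other RFX genes and their partners 4 of 8 were detected in both, Rfx4, Rfx6 and Rfx8 in neither, and Rfx5 in clone 1 only. The Rfx5 probe detected there had processed signals of 228 in clone 1 and 11.8 in clone 2. In clone 1 the pixels of its spot had an SD of 167 on a mean of 363, and those of its neighbour Ocel1 had 90.5 on 668. Of the 4 neighbouring spots with signal of this Rfx5 probe, 2 were at least 2-fold higher in clone 1 as well. The other Rfx5 probe, detected in neither clone, gave 29.3 and 37.2. The part of position on the slide was not tested.

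Markers of cells with motile cilia were looked at beside these values. Of 10 node markers 4 were detected in both clones, namely Nodal, Dand5, Chrd and Nog, while Noto, T, Foxa2, Shh, Pkd1l1 and Cfc1 were in neither. Of 9 markers of multiciliated airway cells 5 were detected in both. These include Foxj1 itself, Tppp3, Ccdc153, 1110017D15Rik and Fam183b, while Tmem212, Sntn, Dynlrb2 and Deup1 (the newer name of Ccdc67) were in neither. Apart from Foxj1 itself these markers went both ways. Ccdc153 (0.61) and 1110017D15Rik (0.25) were higher in clone 2, and Tppp3 (-0.37) and Fam183b (-3.05) in clone 1. The part of multiciliated cells in the difference of Foxj1 was not tested. Summed over the airway list, Foxj1 included, the level was 1.31 times the 75th percentile signal in clone 1 and 1.33 times in clone 2. Within this sum Foxj1 was higher in clone 2 and Fam183b in clone 1. The sum therefore does not compare the markers other than Foxj1 between clones. Fam183b was higher in clone 1, at -1.004 in clone 1 and -4.05 in clone 2, with 2 of 5 neighbouring spots at least 2-fold higher in clone 1. In clone 1 the pixels of its spot had an SD of 123 on a mean of 561, and those of its neighbour Snrpn had 63.0 on 636.

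**Figure D4:**
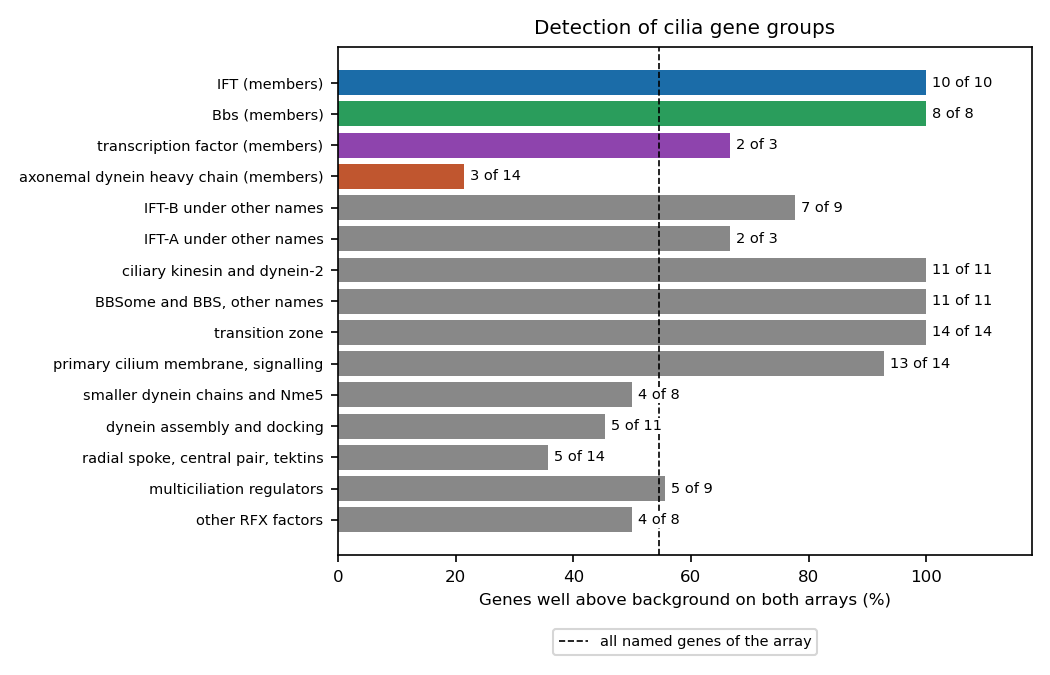
Percentage of the genes of each list that were well above background on both arrays, with the 4 groups of members in colour and the other cilia lists in grey, and the counts beside the bars; the dashed line is the 54.5% of all gene names. Lists for transport and the primary cilium reach 66.7% to 100%, and those for dynein chains, their assembly and the spokes and central pair 21.4% to 50%.

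Promoters were searched for the letters of the X-box, the element that RFX factors bind. RefSeq windows of 300 bases (250 before the transcription start and 50 after, GRCm38.p6) were given for 30 of the 35 members, and for 27025 genes in all. An inverted repeat GTTNCC, 0 to 3 bases, GGNAAC was found in 253 of all windows (0.936%) and in 2 of the member windows (6.67%), those of Bbs7 and Ift57. Since the repeat is its own reverse complement, 1 search covers both strands. The matches are shown in capitals with 20 bases on either side, because both genes were measured in both clones and both carry the element upstream of the start.
Bbs7, 121 bases before the start, chr3:36613477-36613530, minus strand: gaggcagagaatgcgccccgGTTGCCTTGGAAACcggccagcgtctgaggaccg
Ift57, 60 bases before the start, chr16:49699214-49699266, plus strand: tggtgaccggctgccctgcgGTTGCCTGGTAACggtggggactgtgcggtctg
With the looser letters GTNNCC, 0 to 3 bases, GGNNAC, which include every match of the stricter form, 1185 windows (4.38%) and 5 member windows (16.7%) matched, those of Bbs1, Bbs4, Bbs7, Ift57 and Rfx2. By group these were 3 of 8 Bbs windows, 1 of 7 IFT windows, 0 of 13 dynein windows and 1 of 2 windows of transcription factors. The forkhead letters GTAAACA, on either strand, stood in 1095 windows (4.05%) and in 1 member window, that of Dnahc17. A match shows that the letters are there and not that a factor binds, and the absence of letters in these windows says nothing about the rest of the gene.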

How the data were processed

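Total RNA of each EpiSC clone was labelled with Cy3 and hybridised to a 1-colour Agilent mouse array (design 026655), per the labels' protocols and the file headers. Feature Extraction 11.0.1.1 (protocol GE1_1100_Jul11) read the spots, and the deposited processed signal intensity of each spot was already corrected for background, per the file headers. An intensity per probe is also what the authors' deposited table holds, and its normalization is not stated in the sources used here. Its column medians were 65.8 and 65.8, it followed the processed signals (Pearson's r across probes 0.999 and 1.00 on log2 values), and it served as an alternative.

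Control spots and outlier flags (277 and 246 spots) were left out, spots of a probe were averaged in log2, and the 75th percentile of the array was subtracted. A probe was detected where the well-above-background flag was set for 50% or more of its spots. Probes at least 2-fold apart and detected on both arrays were counted. For a probe detected on 1 array the fold is a lower bound under the scaling reported, and other scalings can give less. It was set against the dim probe's own value or the lowest detected value of the dim array, whichever was higher. With 1 array per clone no test between clones was made, and the number of arrays limits the precision. Neighbouring spots are the 6 nearest on the array, compared where they had signal; this was added after the values were seen. Of all 43020 non-control spots 10.8% had a neighbour at least 2-fold apart in the same direction, and of the 56 member spots 19.6%.

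Genes keep the array's names. Through RefSeq (GRCm38.p6) 34 of the 35 were matched, 40 probes by accession and 14 by an older symbol. Every member is named, and of the other lists the counts, the genes at least 2-fold apart and, where few, those detected in neither clone; further genes are examples chosen after their values were seen. The members and lists were chosen with earlier results of these data known. Alternatives were quantile normalization, the percentile over probes detected on both arrays, normexp with an offset of 50 (limma 3.58.1, R 4.3.3), the authors' table, other detection rules, outlier spots kept, and leaving out spots beside one that was 2-fold apart. The scripts (Python 3.11.15, numpy 2.4.6, pandas 2.3.3) were tested on simulated data.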

Additional observations from a re-analysis of the deposited data

How the results depend on the processing

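With the positive and significant flag, 8 dynein genes were detected on both arrays and 2 member probes, of Dnahc11 and Rfx2, were at least 2-fold higher in clone 1. With normexp the median difference of the member probes was 0.054 in place of -0.13, and 4 of the 30 differences moved by over 0.50 log2; they were those of Ift140 (0.12), Bbs5 (0.50), Dnahc7b (0.59) and Rfx3 (0.26). Under quantile normalization, the percentile over detected probes, the authors' deposited table, the rule on negative controls, the brightest probe per gene and outlier spots kept, the median stayed between -0.20 and -0.10. Leaving out spots beside one that was 2-fold apart, an alternative chosen after seeing the data, left 21 genes detected in both clones, among them 8 IFT, 8 Bbs and 3 dynein genes, with a median of -0.12. Foxj1 stayed at least 2-fold higher in clone 2 under each scaling run. Precision is limited by 1 array per clone and 1 spot per member probe, and 21 of the 28 dynein probes were detected in neither clone, so differences there were not measurable. No paired analysis was possible because no result comes from a test and each clone has 1 array.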
